A study of Homo sapiens with 8 samples.

Results

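The APOBEC3 cytidine deaminase genes were followed across 4 groups of sorted HT29 cells. They were the 7 rows named APOBEC3A, APOBEC3B, APOBEC3C, APOBEC3D, APOBEC3F, APOBEC3G and APOBEC3H, of 38148 gene rows in an mRNA-seq table, and were picked out of the table by gene name, with no threshold on a measured value. HT29 is an established human colorectal cancer cell line with a mutated BRAF kinase. Cells were untreated or were grown in 1 µM selumetinib, an inhibitor of the MEK kinases that activate ERK, for 24 h. All cells were then fixed with glyoxal, stained for cyclin B1 (CCNB1), a protein that accumulates in cells approaching mitosis, and separated by flow cytometry into a fraction without the protein (CCNB1-negative) and one with it (CCNB1-positive). With or without selumetinib, each fraction was read in 2 libraries, which makes 4 groups. The CCNB1-negative fraction holds cells of all stages in which the protein is low, so the fractions are mixtures and not single stages.

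APOBEC3 enzymes convert cytosine to uracil in single-stranded DNA and restrict retroviruses and mobile elements. APOBEC3A and APOBEC3B can also act on the cell's own DNA and are linked to mutation clusters in tumours. The uracil they leave is removed by UNG, the main nuclear uracil glycosylase, which opens base excision repair. APOBEC3B transcription is known to be held down in resting cells by the DREAM repressor complex and raised by B-MYB (MYBL2), FOXM1 and NF-kB, whereas other family members are known as interferon-induced genes of immune cells.

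The libraries held 12696860 to 23916160 reads on genes, with the fewest in the treated CCNB1-negative group. Levels are given in RPM (reads per 1000000 reads on genes), and a count of 0 reads allows a level of up to 0.125 to 0.236 RPM (3 reads) depending on the library. Intervals and limits of this kind cover counting error only. For all 8 libraries the short titles and the growth-medium labels name the opposite treatment or fraction to the descriptions, and groups follow the descriptions, which are also the column names of the table. CCNB1 mRNA was higher in the libraries described as CCNB1-positive, by 2.09 on the log2 scale in untreated cells (limma, adjusted p = 3.3e-05) and by 5.08 in treated cells (adjusted p = 5.4e-10). CCNB1 and 5 genes transcribed downstream of ERK (DUSP6, SPRY4, ETV4, ETV5 and PHLDA1) were all lower under selumetinib in both fractions. Under the titles every response described for one fraction would belong to the other with its sign changed, and the untreated and treated fraction differences would trade places with a change of sign. The colon epithelial markers were expressed in every group: 10 of 10 had reads, with summed levels of 6790 to 13000 RPM. Of 10 leukocyte markers, MS4A1 was at 0 reads in all libraries, CD3D, CD3E and CD2 had at most 1 read in a library, and PTPRC (CD45) at most 0.786 RPM. The myeloid markers CD14, with 4 to 55 reads (0.315 to 2.5 RPM), and ITGAM, with 4 to 24 reads (0.262 to 1 RPM), had reads in every library. CD14 was at 1.54 to 2.5 RPM in untreated and 0.315 to 0.601 RPM in treated libraries. LYZ (lysozyme), also made by intestinal epithelium, had 343 to 1080 RPM of that list's summed level of 345 to 1080 RPM. The 5 stromal markers summed to 1.36 to 6.81 RPM, with group means of 1.61, 2.03, 3.39 and 6.17 RPM in untreated CCNB1-negative, untreated CCNB1-positive, treated CCNB1-negative and treated CCNB1-positive cells. COL1A1, a collagen chain, was the one of them tested and was higher with selumetinib in both fractions (log2 differences 1.81 and 2.19). It was highest in treated CCNB1-positive cells (5.36 and 4.11 RPM), as was APOBEC3B, and its part in the APOBEC3B values was not tested.

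The members lie next to each other on the forward strand of chromosome 22 (GRCh38), and the extent of their rows decides what can be read from them. The APOBEC3B row runs from 38982347 to 38992804. The APOBEC3A row runs from 38952741 to 38992778, which is 29594 bases past the end of APOBEC3A in GENCODE release 44 (38963184), and takes in 10432 of the 10458 bases of the APOBEC3B row (99.8%). The rows of the other members had the same limits as in GENCODE release 44. APOBEC3C runs from 39014257 to 39020352, APOBEC3D from 39021113 to 39033277 and APOBEC3F from 39040604 to 39055972. APOBEC3G runs from 39077067 to 39087743 and APOBEC3H, the last of the cluster, from 39097224 to 39104067. A further row, AL022318.4, spans APOBEC3C and APOBEC3D together (39014363 to 39033276).

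**Figure D1:**
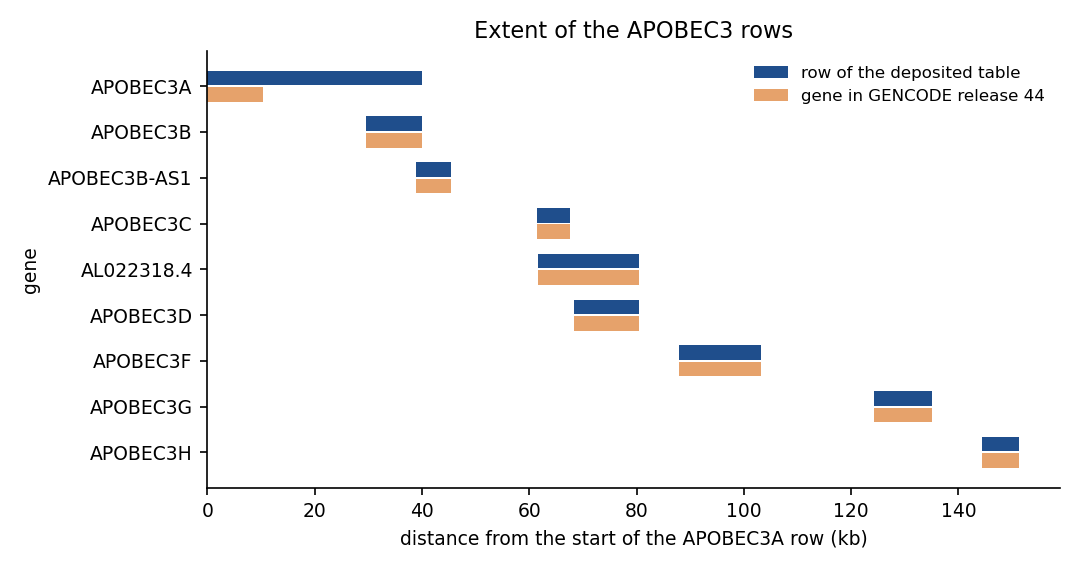
Extent of each row in the deposited table (blue) and of the gene of the same name in GENCODE release 44 (orange), as distance in kb from the start of the APOBEC3A row. The APOBEC3A row reaches across the whole of APOBEC3B but for its last 26 bases, and the AL022318.4 row covers APOBEC3C and APOBEC3D.

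APOBEC3A and APOBEC3B are also close in sequence, which matters for which of them a read is placed on. The sequences are shown for the most similar pair among fully coding exons of equal length, taken from a GENCODE release 44 transcript of each gene. The pair is exon 4 of APOBEC3A (38961387 to 38961681) and exon 6 of APOBEC3B (38991332 to 38991626). The exons are of the same length, 295 bases, and differ at 2 of them (99.3% identical). Both differences lie in the 60 bases printed here, from chr22:38961570-38961629 for APOBEC3A and chr22:38991515-38991574 for APOBEC3B, forward strand, with the differing bases in capitals.
APOBEC3A exon 4: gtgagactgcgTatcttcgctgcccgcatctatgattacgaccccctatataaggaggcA
APOBEC3B exon 6: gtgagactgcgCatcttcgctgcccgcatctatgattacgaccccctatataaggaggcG
Upstream of the first difference the exons share a run of 194 bases. It is printed once because a read that falls within it holds no base that tells the genes apart (chr22:38961387-38961580 and chr22:38991332-38991525).
APOBEC3A and APOBEC3B: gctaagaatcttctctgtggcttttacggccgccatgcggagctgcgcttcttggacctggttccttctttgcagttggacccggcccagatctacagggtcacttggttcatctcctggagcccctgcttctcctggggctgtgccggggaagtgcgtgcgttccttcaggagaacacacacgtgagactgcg
The next exon pair (APOBEC3A exon 5, APOBEC3B exon 7, 116 bases) differs at 6 bases and is 94.8% identical. Over whole transcripts of GENCODE release 44, 14.1% of the distinct 50-base windows of APOBEC3B occur in APOBEC3A, and 8.39% of the 100-base windows. Windows shared with any other member made up 26.9% of the 50-base windows of APOBEC3B, 14.8% of those of APOBEC3D, 11.4% of those of APOBEC3F and 5.47% of those of APOBEC3G. APOBEC3C shared 1.21% and APOBEC3H, the most distant member, shared 0 of 1342 windows.

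The row named APOBEC3A counted the reads of APOBEC3B. It held 86 and 62 reads in the untreated CCNB1-negative libraries and 143 and 123 in the untreated CCNB1-positive ones. In the treated libraries it held 30 and 10 reads in CCNB1-negative and 282 and 113 in CCNB1-positive cells. The APOBEC3B row held 86, 62, 142, 122, 31, 10, 282 and 110 reads in the same order. The 2 rows were equal in 4 of 8 libraries and differed by at most 3 reads in the others, with 849 reads against 845 over all libraries. The APOBEC3A row was higher by 5 reads summed over 3 libraries and lower by 1 read in treated CCNB1-negative replicate 1, a net excess of 4 reads. The rows are therefore 1 measurement, described as APOBEC3B from here on, and a count of 2 members called is a count of 1 locus. By its extent the APOBEC3A row also takes in APOBEC3A itself, so few reads were placed on that gene apart from APOBEC3B. Any APOBEC3A reads placed on the shared exon sequence of APOBEC3B would be included in the APOBEC3B count.

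**Figure D2:**
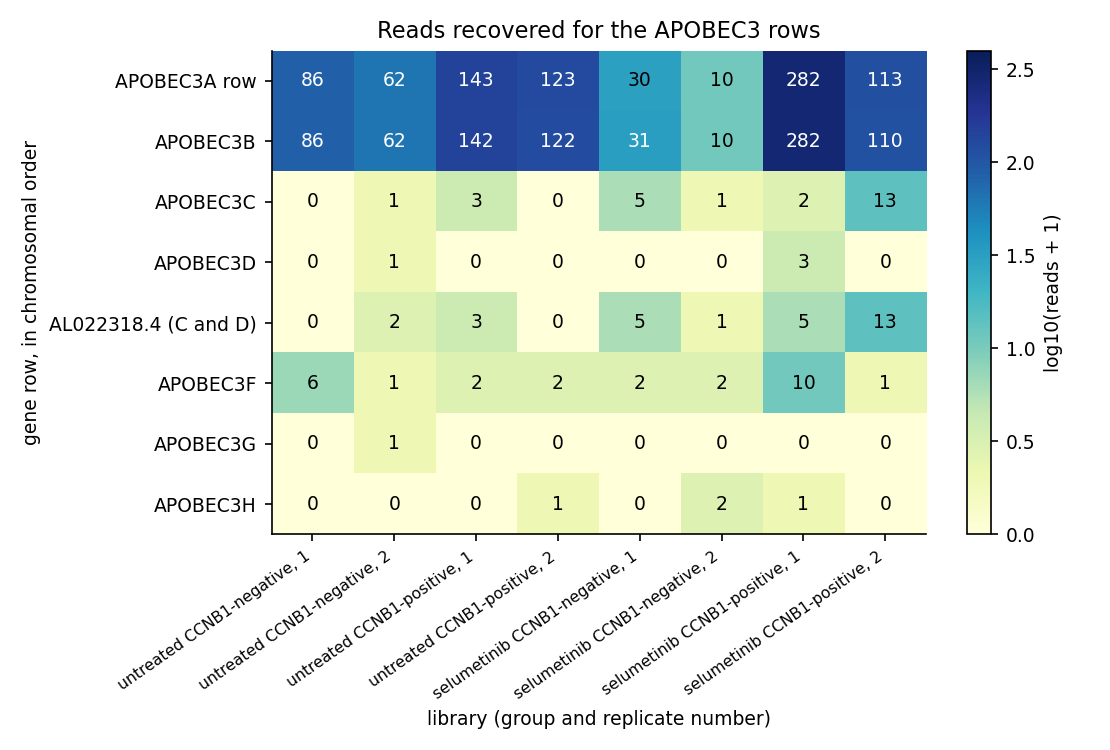
Reads recovered for each APOBEC3 row (vertical axis, in chromosomal order) in each of the 8 libraries (horizontal axis), with colour giving log10(reads + 1). The upper pair of rows is the same within 3 reads everywhere, and no other row passes 13 reads in a library.

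APOBEC3B, which carries a pair of deaminase domains, was the one member expressed above a trace in HT29 cells. Its level was 3.02 RPM per kb of merged exon length over all libraries, and 83.6% of the 14219 genes tested had a higher mean value. Per kb, the next members were APOBEC3C at 0.064 RPM, APOBEC3F at 0.0337, APOBEC3H at 0.0216, APOBEC3D at 0.0107 and APOBEC3G at 0.00126. The step from APOBEC3B to APOBEC3C was larger than the spread between libraries of a group (SD 1.2 RPM per kb for APOBEC3B). The SD was 0.12 for APOBEC3C, 0.033 for APOBEC3F, 0.049 for APOBEC3H, 0.022 for APOBEC3D and 0.0034 for APOBEC3G. Each step between neighbours among these 5 was smaller than the SD of the higher of the pair, so their order is not resolved.

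The 5 other members had 60 reads in all and did not reach the mean of 1 RPM required for testing. APOBEC3F, a restriction factor of retroviruses, had reads in every library: 6 and 1 in untreated CCNB1-negative, 2 and 2 in untreated CCNB1-positive, 2 and 2 in treated CCNB1-negative and 10 and 1 in treated CCNB1-positive cells. The high value of APOBEC3F in treated CCNB1-positive cells was that of 1 library, and the groups overlapped or were equal in reads. APOBEC3C, a single-domain enzyme, had 0 and 1 reads in untreated CCNB1-negative, 3 and 0 in untreated CCNB1-positive, 5 and 1 in treated CCNB1-negative and 2 and 13 in treated CCNB1-positive cells. More than 3 reads of it were seen in treated libraries alone, and in 1 library of each fraction. APOBEC3D had 4 reads in all, 3 of them in treated CCNB1-positive replicate 1. APOBEC3H also had 4, spread over 3 libraries. APOBEC3G, the best known antiviral member of T cells, had 1 read, in untreated CCNB1-negative replicate 2, and 0 in the other 7 libraries. In the main fit these members had no test. Without the filter the one call among them was that of APOBEC3D, higher with selumetinib in CCNB1-positive cells (adjusted p = 0.047), on the 3 reads of 1 library.

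The overlapping AL022318.4 row held exactly the sum of the APOBEC3C and APOBEC3D reads in 8 of 8 libraries, so it added no reads of its own. APOBEC3B-AS1, an antisense gene annotated across the end of APOBEC3B on the reverse strand, had 3 reads in all against 845 in the APOBEC3B row. APOBEC genes outside the APOBEC3 cluster were near 0 as well. APOBEC2 had 2 reads in 1 library. APOBEC4 had 2 or 3 reads in each of 3 treated libraries, and APOBEC1, the intestinal enzyme that edits apolipoprotein B mRNA, had 0 to 10. None of these 3 was tested.

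The group means of APOBEC3B ran, from lowest to highest, in the order treated CCNB1-negative, untreated CCNB1-negative, untreated CCNB1-positive and treated CCNB1-positive. Of the steps between neighbours in this order, the one between the CCNB1-negative groups alone was called in the main fit described below. In untreated CCNB1-negative cells the level was 3.92 RPM (95% Poisson interval 3.13 to 4.84) and 3.24 RPM (2.49 to 4.16) in the 2 libraries. In untreated CCNB1-positive cells it was 5.94 RPM (5 to 7) and 5.54 RPM (4.6 to 6.61). These replicates lay within each other's counting intervals. Treated CCNB1-negative cells gave 2.22 RPM (1.51 to 3.15) and 0.788 RPM (0.378 to 1.45), the latter from 10 reads. Treated CCNB1-positive cells gave 14.1 RPM (12.5 to 15.9) and 7.8 RPM (6.41 to 9.4). In both treated groups replicate 1 was well above replicate 2, with intervals that did not overlap. In bulk libraries such as these, fewer cells that express a gene and less RNA per cell cannot be told apart.

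**Figure D3:**
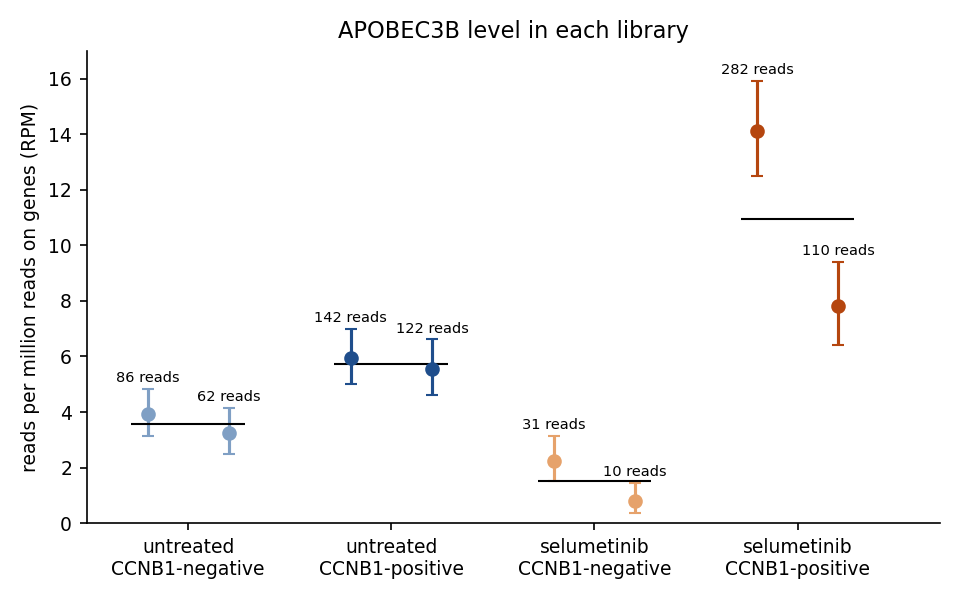
APOBEC3B level in RPM (vertical axis) in each library of the 4 groups (horizontal axis), with 95% Poisson intervals and the number of reads. Black lines are group means: 3.58, 5.74, 1.5 and 11 RPM from left to right.

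Group means were 3.58 ± 0.48, 5.74 ± 0.28, 1.5 ± 1 and 11 ± 4.5 RPM (SD, n = 2 each) in untreated CCNB1-negative, untreated CCNB1-positive, treated CCNB1-negative and treated CCNB1-positive cells. Comparisons were tested with limma on the log2 values, where the same means were 6.41 ± 0.18, 7.11 ± 0.06, 4.84 ± 1.08 and 7.87 ± 0.62. All p-values given with them are Benjamini-Hochberg adjusted over the 14219 genes tested, and a gene was called at an adjusted p under 0.05. Nothing in the labels says that replicates came from separate cultures, so the p-values measure the spread between these libraries, which may be technical.

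The first comparison was the selumetinib response of CCNB1-negative cells. APOBEC3B fell by 1.57 on the log2 scale (SE 0.42, 95% interval -2.48 to -0.67, adjusted p = 0.0039), a 2.97-fold lower level. Calls were common in this comparison: 35.8% of the genes tested were lower and 38.2% were higher, so a lower call is not unusual for a gene of HT29 cells. Both tested members were called lower, which is the 1 locus with its doubled count (APOBEC3A row, adjusted p = 0.0031). The size rested on treated CCNB1-negative replicate 2, without which the difference was -0.81 and adjusted p = 0.065. Without replicate 1 of that group it was -2.33 (adjusted p = 1.9e-04), and after quantile normalization it was -2.32 (adjusted p = 1.3e-04).

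In CCNB1-positive cells the response of APOBEC3B had the other sign and did not pass the test. The difference was 0.77 on the log2 scale (SE 0.42, 95% interval -0.14 to 1.67, adjusted p = 0.12, unadjusted 0.09), from 7.15 and 7.06 in untreated cells to 8.31 and 7.44 in treated cells. Both treated libraries were above both untreated ones. Of the genes tested, 38% were called higher and 27.3% lower in this comparison, and higher calls made up 47.1% of calls after quantile normalization against 58.1% before it. APOBEC3B did pass in the fit of these 2 groups alone (adjusted p = 0.017), with limma-voom on the recovered reads (0.67, adjusted p = 0.049), and when either treated CCNB1-negative library was left out of the common fit (adjusted p = 0.041 and 0.036). It was 0.33 (adjusted p = 0.59) without treated CCNB1-positive replicate 1, 1.20 (adjusted p = 0.053) without replicate 2, and 0.07 (adjusted p = 0.89) after quantile normalization.

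Between the fractions of untreated cells APOBEC3B was not called. Both CCNB1-positive libraries were above both CCNB1-negative ones, by 0.69 on the log2 scale (SE 0.42, 95% interval -0.21 to 1.60, adjusted p = 0.55, unadjusted 0.12). Few genes differed here: 1.36% were called higher in the CCNB1-positive fraction and 1.51% were called lower, and the share of higher calls among all calls was 47.5%, or 65.7% after quantile normalization. None of the members passed under any alternative fit.

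Under selumetinib the fractions were far apart. APOBEC3B was higher in CCNB1-positive than in CCNB1-negative cells by 3.03 on the log2 scale (SE 0.42, 95% interval 2.12 to 3.93, adjusted p = 1.8e-04), an 8.16-fold difference. In this comparison 13.8% of genes were called higher and 7.87% lower, with higher calls at 63.6% of calls, or 46.5% after quantile normalization. The call was kept in all 8 fits that left out 1 library, with values of 2.27 to 3.79 and adjusted p of at most 0.004, and in all 7 other alternatives that could test the gene. The lowest of these, 2.27, was without treated CCNB1-negative replicate 2, and the highest, 3.79, without replicate 1 of that group.

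The difference between the selumetinib responses of the fractions was 2.34 for APOBEC3B (SE 0.60, 95% interval 1.06 to 3.62, adjusted p = 0.035). The response was more positive in CCNB1-positive cells, and both tested members, 1 locus, were called. Higher calls of this kind were made for 4.99% of genes and lower calls for 0.345%, and their share was 93.5% higher, or 69.2% after quantile normalization. The call was near the threshold. It was lost without untreated CCNB1-negative replicate 1 (adjusted p = 0.067) or 2 (0.056), without untreated CCNB1-positive replicate 1 (0.056) or 2 (0.062), without treated CCNB1-negative replicate 2 (1.58, adjusted p = 0.11) and without treated CCNB1-positive replicate 1 (1.90, adjusted p = 0.17). Without treated CCNB1-negative replicate 1 the difference was 3.10 (adjusted p = 0.0023). The call was also lost when genes below 1 RPM were kept in the fit (adjusted p = 0.14).

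Most genes that handle uracil in DNA were lower with selumetinib in both fractions, which was not the pattern of APOBEC3B. Of 12 genes for uracil excision, the repair steps after it and dUTP removal, 9 were lower and 2 higher in treated CCNB1-negative cells (median log2 difference -1.21, against 0.05 over all genes tested). Of all genes tested, 35.8% were lower and 38.2% higher in this comparison. UNG fell by 2.59 (SE 0.16, adjusted p = 1.2e-08), and PARP1, which binds the strand breaks made during repair, fell by 2.51 (SE 0.17, adjusted p = 2.8e-08). DUT, which removes dUTP before it can be built into DNA, fell by 1.62. SMUG1, another uracil glycosylase, rose by 0.94, and POLB, the repair polymerase, rose by 0.47. In CCNB1-positive cells 8 of the 12 were lower and 1, SMUG1, was higher (median -0.55, against 0.17 over all genes). Of all genes tested, 27.3% were lower and 38% higher there. PARP1 was at -1.64, LIG3, a DNA ligase, at -1.13, APEX1, the main abasic site endonuclease, at -1.09 and UNG at -1.04. For 5 of the 12 the response differed between the fractions, all in the direction seen for APOBEC3B: UNG (1.55), DUT (0.96), APEX2 (0.95), HMCES (0.92) and MBD4 (0.87). Of all genes tested, 4.99% were called in that direction and 0.345% in the other.

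Between the fractions UNG and APOBEC3B did not move alike. In untreated cells UNG was lower in the CCNB1-positive fraction (log2 difference -1.62, adjusted p = 3.0e-05), the one call among the 12. Of all genes tested, 1.36% were higher and 1.51% lower in that comparison. In treated cells the UNG difference was -0.07 (adjusted p = 0.78), while PARP1, XRCC1, MBD4 and DUT were higher in CCNB1-positive cells and POLB was lower. Between the treated fractions 13.8% of all genes tested were higher and 7.87% lower. The log2 value of APOBEC3B minus that of UNG was -5.54 and -5.83 in untreated CCNB1-negative, -3.33 and -3.43 in untreated CCNB1-positive, -4.12 and -5.21 in treated CCNB1-negative and -1.05 and -2.09 in treated CCNB1-positive cells. APOBEC3B reads were thus fewest relative to UNG reads in untreated CCNB1-negative cells and most numerous in treated CCNB1-positive cells. These differences compare reads and not molecules, since the lengths of the genes are not taken into account.

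**Figure D4:**
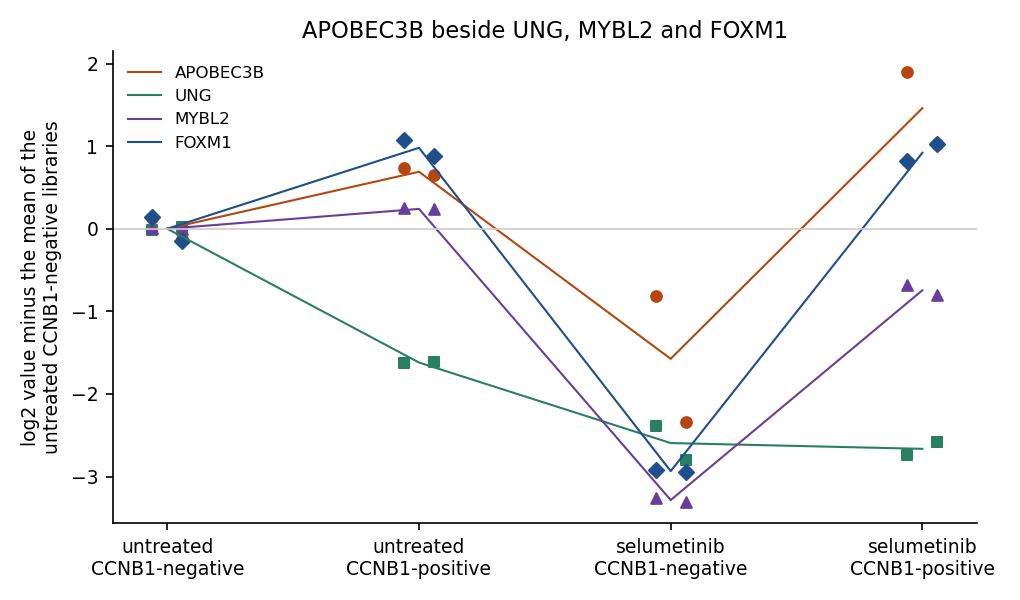
Log2 value of APOBEC3B, UNG, MYBL2 and FOXM1 in each library minus the gene's own mean in untreated CCNB1-negative cells (vertical axis), by group (horizontal axis). Points are libraries and lines join group means. APOBEC3B, MYBL2 and FOXM1 are lowest in treated CCNB1-negative cells, and UNG is as low in treated CCNB1-positive cells.

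For the known control of APOBEC3B through the cell cycle, 14 genes were listed: DREAM subunits, further E2F proteins, and the B-MYB and FOXM1 machinery. Each gene was tested singly, and the list as a set was not tested. In treated CCNB1-negative cells 10 were lower and 3 higher (median -0.85), where 35.8% of all genes tested were lower and 38.2% higher. E2F1 fell by 3.65, MYBL2 fell by 3.28 and FOXM1 fell by 2.93. RBL2 (p130), the pocket protein of DREAM in resting cells, rose by 0.81, and LIN37 and LIN52, which belong to the MuvB core, rose by 0.71 and 0.66. Other DREAM and MuvB genes fell: TFDP1 (-2.14), E2F4 (-1.36), LIN9 (-1.13), RBL1 (-0.85), RBBP4 (-0.81) and LIN54 (-0.79). The DREAM genes thus did not move in a single direction. In treated CCNB1-positive cells 7 were lower (median -0.26) and 3 higher, again RBL2, LIN37 and LIN52. Of all genes tested, 27.3% were lower and 38% higher there. TFDP1, the partner of E2F proteins, was at -1.48, E2F5 at -1.23, E2F4 at -1.13 and MYBL2 at -0.99, while FOXM1 was at -0.06 (adjusted p = 0.74).

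Under selumetinib 7 of these 14 were higher in CCNB1-positive cells and 0 lower (median 0.58, against 0.02 over all genes). Of all genes tested, 13.8% were higher and 7.87% lower in this comparison. FOXM1 differed by 3.85, MYBL2 by 2.53 and LIN9, a MuvB subunit, by 1.74, beside 3.03 for APOBEC3B. In untreated cells 2 were higher, FOXM1 (0.98) and E2F5 (0.86), and E2F1 was lower (-2.05). There 1.36% of all genes tested were higher and 1.51% lower. The response differed between fractions for 5, E2F1 (3.15), FOXM1 (2.87), MYBL2 (2.29), LIN9 (1.46) and RBL1 (1.20), each more positive in CCNB1-positive cells. Of all genes tested, 4.99% were called in that direction. MYBL2 had 224 and 219 RPM in untreated CCNB1-negative, 263 and 259 in untreated CCNB1-positive, 25.2 and 25 in treated CCNB1-negative and 146 and 136 in treated CCNB1-positive cells. Its highest group was the untreated CCNB1-positive one, where that of APOBEC3B was the treated one. All of these genes were read in the same libraries, so the depth and sort of a library enter each of them.

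**Figure D5:**
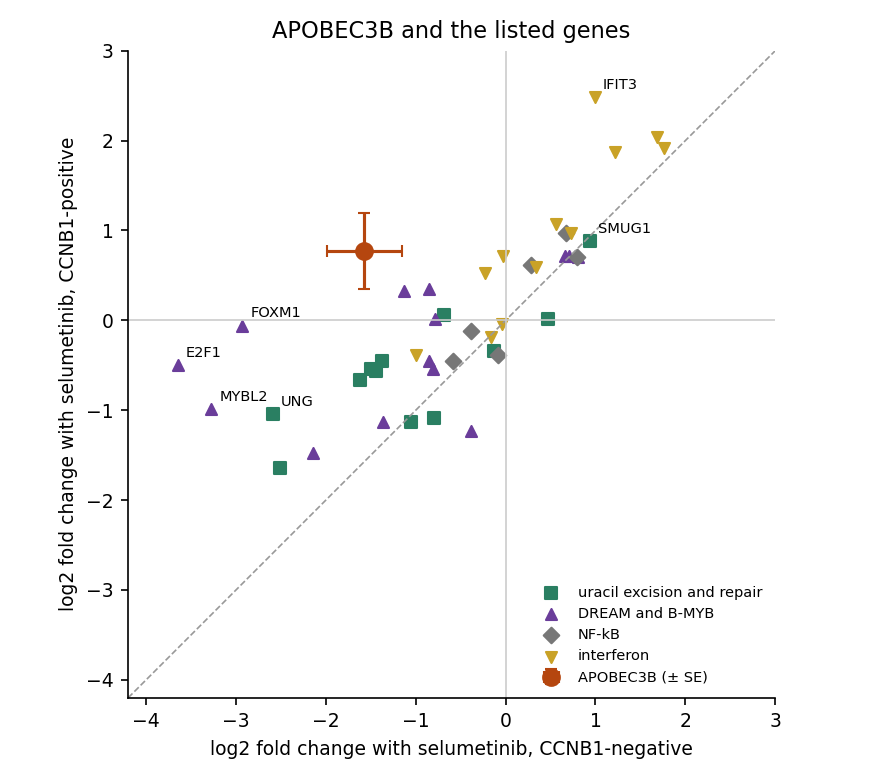
Log2 fold change with selumetinib in CCNB1-negative (horizontal axis) and CCNB1-positive cells (vertical axis) for APOBEC3B (circle, bars ± SE) and the tested genes of 4 lists. The dashed line marks equal responses. APOBEC3B lies at -1.57 and 0.77, above the line, as FOXM1 and MYBL2 do, and the interferon genes lie mostly right of 0.

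The other known inputs moved in other ways. Of 6 NF-kB genes, RELB and REL rose in treated CCNB1-negative cells (0.79 and 0.67) and RELA fell by 0.59. Of all genes tested, 38.2% were higher and 35.8% lower there. In CCNB1-positive cells REL, RELB and NFKB2 rose and RELA and NFKB1 fell, where 38% of all genes tested were higher and 27.3% lower. No NF-kB gene was called between the fractions or in the difference of responses. Over all genes tested, 1.36% were higher and 1.51% lower between untreated fractions, and 13.8% and 7.87% between treated ones. For the difference of responses the shares were 4.99% and 0.345%. With 6 genes, the NF-kB counts do not stand apart from the shares over all genes. Of 14 interferon pathway genes listed, 13 had a row here and 12 were tested. In CCNB1-negative cells 5 rose, STAT2 (1.76), MX1 (1.69), IFIT3 (0.99), IRF9 (0.73) and IFNAR2 (0.56). That is near the share over all genes tested, of which 38.2% were called higher there. In CCNB1-positive cells 8 rose (median 0.84), with IFIT3 at 2.48 and MX1, an antiviral GTPase, at 2.04. Of all genes tested, 38% were called higher in that comparison. IFIT1 (2.05), IFIT3 (1.36) and ISG15 (0.46) were among those higher in the CCNB1-positive fraction under selumetinib, and none of the 12 was called for the difference of responses. Among the other members, APOBEC3F and APOBEC3G had at most 10 reads in any of these libraries, so their movement with that list could not be measured. The APOBEC3A row exceeded the APOBEC3B row by at most 3 reads in any library, so the same holds for APOBEC3A.

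No tested gene around the cluster had all of the calls of APOBEC3B. On one side SUN2, DNAL4 and CBX6 and on the other CBX7, PDGFB and AL031590.1 were the nearest rows tested. CBX7, a Polycomb subunit and the closest to APOBEC3H, was higher with selumetinib in both fractions (1.09 and 1.21). PDGFB was lower in CCNB1-negative cells (-0.86, adjusted p = 0.0096), as APOBEC3B was. Its difference between the treated fractions was 0.58 and was not called (adjusted p = 0.13). Between fractions, SUN2, a nuclear membrane protein, was the one neighbour called, higher in CCNB1-positive cells both untreated (1.04) and treated (0.94). Of all genes tested, 1.36% were called higher between untreated and 13.8% between treated fractions. None of the 6 was called for a difference of responses. For that comparison 4.99% of all genes tested were called higher and 0.345% lower, so 0 of 6 is not unusual.

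Over the 8 libraries the tested rows most like APOBEC3B, by the root mean square difference of gene-centred log2 values, were the overlapping APOBEC3A row (0.02), FAM131B (0.37) and ZNF165 (0.44). FAM131B had 3 to 64 reads in a library, with log2 differences of -1.68 and 0.68 for the responses of CCNB1-negative and CCNB1-positive cells and 2.49 between the treated fractions. ZNF165, a zinc finger protein known from testis, had 36 to 419 reads, with -1.08, 0.05 and 2.55. These are descriptions over libraries that also share depth and sort.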

How the data were processed

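HT29 mRNA-seq libraries were made by the authors from poly(A) RNA of glyoxal-fixed, sorted cells with a directional kit. Per the methods, reads were trimmed (Trim Galore 0.5.0), mapped to GRCh38 (HISAT2 2.1.0) and counted over genes in SeqMonk, whose annotation release and strand setting for this table are not given in the sources used here. The deposited values are log2 reads scaled by the authors to the largest library, with 0 reads entered as 0.9. Whole reads were recovered from them (100% of values up to 1000 reads within 0.01 reads). The members and gene lists were chosen with earlier results of these data known. The 14219 of 38148 genes whose mean value reached 1 RPM were fitted in R 4.3.3 with limma 3.58.1 (trend), 1 coefficient per group over all 8 libraries and Benjamini-Hochberg adjustment. This test was first run on simulated data. All 7 members were named, with 2 to 4 genes of each list by size of change, every gene where 5 or fewer were called, and the 3 most similar rows. Some further list genes, among them DUT, XRCC1, E2F4, LIN37, LIN52, LIN54, RBBP4, RBL2 and LIN9, were named after their values were seen. All 8 value columns were used. Some listed genes are not reported here. The promoter table matched APOBEC3H only and was not used. Alternatives were no filter, 10 RPM, quantile normalization, log2(RPM + 0.1), limma-voom on recovered reads, replicate blocks, only the groups compared, adjusted p under 0.01, a 2-fold minimum, leaving out each library, and longest transcript for gene length.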

Additional observations from a re-analysis of the deposited data

Results flagged for a closer look

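The selumetinib response of APOBEC3B was more positive in the CCNB1-positive fraction by 2.34 on the log2 scale, by the interaction term of the limma fit (adjusted p = 0.035), with both treated CCNB1-positive libraries above and both treated CCNB1-negative libraries below the untreated libraries of their fraction. The APOBEC3A row, which counts the same reads, gave 2.37 (adjusted p = 0.029). With 2 libraries in a group, no test for a library far from the others was possible.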

How the results depend on the processing

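In the selumetinib response of CCNB1-negative cells, 2 member rows (1 locus) were called under the main settings and 1 to 2 when a library was left out. In CCNB1-positive cells 0 were called, against 2 with limma-voom, 2 in the fit of only the groups compared, 1 without a filter and 0 to 2 when a library was left out. The 1 without a filter was APOBEC3D, with 3 reads in 1 library. For the difference of the responses 2 were called, against 0 without a filter, 0 at an adjusted p under 0.01 and 0 to 2 when a library was left out. Between fractions the counts, 0 in untreated and 2 in treated cells, did not change under the alternatives run, and APOBEC3B kept its direction in all of them. The filter of 10 RPM left no member to test. Replicate numbers are shared by the groups, but nothing in the labels ties them to a culture or day. Deviations of same-numbered libraries correlated at 0.35 between untreated and 0.43 between treated fractions and at -0.09 to 0.08 otherwise. With replicate number added as a block, the difference of responses of APOBEC3B was 2.34 (adjusted p = 0.013) and the response of CCNB1-positive cells 0.77 (adjusted p = 0.061). With a block within each treatment, adjusted p was 0.069 between untreated fractions and 9.1e-05 for the difference of responses, so no member call changed under a block. Over all genes, calls between untreated fractions went from 408 to 254 after quantile normalization, 259 without a filter and 1923 with a block within treatment, where calls between treated fractions went from 3077 to 6671 and calls for the difference of responses from 758 to 3850 (496 without a filter). Quantile normalization moved the median difference of all genes from 0.17 to -0.08 in the response of CCNB1-positive cells. With lengths from the longest transcript the level of APOBEC3B was 3.1 RPM per kb (3.02 with merged exons), and the order of the other members was unchanged. The APOBEC3A row gave 3.89 (2.86 with merged exons). That value divides the reads of APOBEC3B by the length of APOBEC3A, so it is not a level of APOBEC3A. Depth limits the treated CCNB1-negative group most, where APOBEC3B rests on 31 and 10 reads.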
